A study of Mus musculus with 9 samples.

Results

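The ventricle of mice that carry a transgene for constitutively active phosphoinositide 3-kinase (PI3K) was compared with the ventricle of non-transgenic control mice (NTG), gene by gene. The 6 arrays of this comparison were chosen by their titles from 9 arrays in all, 3 from constitutively active PI3K hearts (caPI3K) and 3 from NTG hearts. The remaining 3 arrays came from mice with a dominant negative PI3K (dnPI3K), which entered the estimate of the spread and a test between the transgenic groups. Each array is labelled with 1 animal number and with total RNA of the ventricle only; 2 caPI3K and 2 NTG animals are numbered from 2800 and 1 of each from 3100. Per the labels, hearts were 20% larger with caPI3K and 17% smaller with dnPI3K than in littermates of wild type. The promoter of the transgenes, the strain, the age and the sex are not given in the sources used here, and neither is how the littermates of the labels relate to the NTG animals.

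Class I PI3K is a lipid kinase at the plasma membrane that insulin and insulin-like growth factor (IGF) switch on through their receptors. Its lipid product recruits the kinases Pdpk1 and Akt, which promote protein synthesis through mTOR and keep FoxO transcription factors out of the nucleus. In the heart this pathway is known for its part in normal growth of the muscle. Pressure overload, by contrast, is known for a return of fetal genes such as Nppa, Nppb, Acta1 and Myh7.

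By correlation, the caPI3K and NTG arrays did not stand apart as a whole. Across the probe sets tested, Pearson correlations were 0.958 to 0.962 among caPI3K arrays, 0.947 to 0.953 among NTG arrays and 0.951 to 0.959 between both groups. Array medians did not overlap, at 178 to 184 in caPI3K and 189.8 to 194 in NTG, in the deposited intensity units. Signal at the 3′ end over that at the 5′ end, which reads RNA integrity, was 0.813 to 0.875 in caPI3K and 0.839 to 0.866 in NTG for Gapdh, and for Actb 1.03 to 1.2 against 1.16 to 1.31. The ventricular myosin light chain Myl2 was among the brightest genes, at 34718 to 37393 in caPI3K and 35392 to 39263 in NTG. Atrial light chains were not absent: Myl7 read 652.8, 525.2 and 5579 in caPI3K and 7253, 4703 and 315.4 in NTG, so that arrays of both groups were high and low. All values below are intensities after quantile normalization, replicates are numbered in accession order, and a level of one probe set cannot be set against that of another.

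At gene resolution few differences passed the test, and separation of the arrays, a description only, was more common. The test was limma's moderated fit with Benjamini-Hochberg adjustment, two-sided, over 10645 probe sets, and "past the threshold" means an adjusted p under 0.05. Past it were 9 probe sets (0.0845%), 5 higher in caPI3K (0.047%) and 4 lower (0.0376%). These stand for Acta1, Myh7, Hsph1, Tpbpa and Eepd1, which rose, for Tfpi, Sprr2g and Sprr2k, which fell, and for 1 probe set without a gene symbol, which fell from 1391 ± 134 to 384.9 ± 129 (mean ± SD, n = 3). By a looser description, all 3 caPI3K arrays lay above all 3 NTG arrays for 509 of 7484 genes (6.8%) and below them for 416 (5.56%). These latter shares are the background against which the gene groups are read, because only Acta1, Myh7, Hsph1 and Tfpi among the members of the 41 gene lists passed the threshold. With arrays scaled to the same median the counts were 721 higher and 308 lower, and without quantile normalization they were 420 and 537, so the balance between them moves with the scaling. Among calls, median scaling gave 9 higher and 4 lower. It moved the median log2 difference of all probe sets to 0.037, beside which list medians in that setting are read. The median log2 difference over all 7484 genes was 0, and 3744 were above 0.

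The number of calls depended on single arrays. Without NTG replicate 1 it was 20, without dnPI3K replicate 1 it was 7, and it was 2 when the array left out was caPI3K replicate 1, dnPI3K replicate 2 or caPI3K replicate 3. By limma no probe set passed (0 calls) in 4 further fits. These were the fit without caPI3K replicate 2, in which 565 had an unadjusted p under 0.05, the fit without dnPI3K replicate 3 (673), and the fits without NTG replicate 2 (742) and without NTG replicate 3 (837); with all arrays 734 did. Over 20 alternative settings Acta1 passed in 12, Myh7 and Sprr2g in 11, Hsph1 in 10, and Tfpi and Sprr2k in 9. Eepd1 passed in 7 of 19. In the 6 fits that leave out a caPI3K or NTG array, Myh7 passed in 2, and Acta1, Hsph1 and Tfpi in 1 each. With 3 arrays against 3, an exact permutation test of 1 gene cannot give a two-sided p below 0.1.

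**Figure D1:**
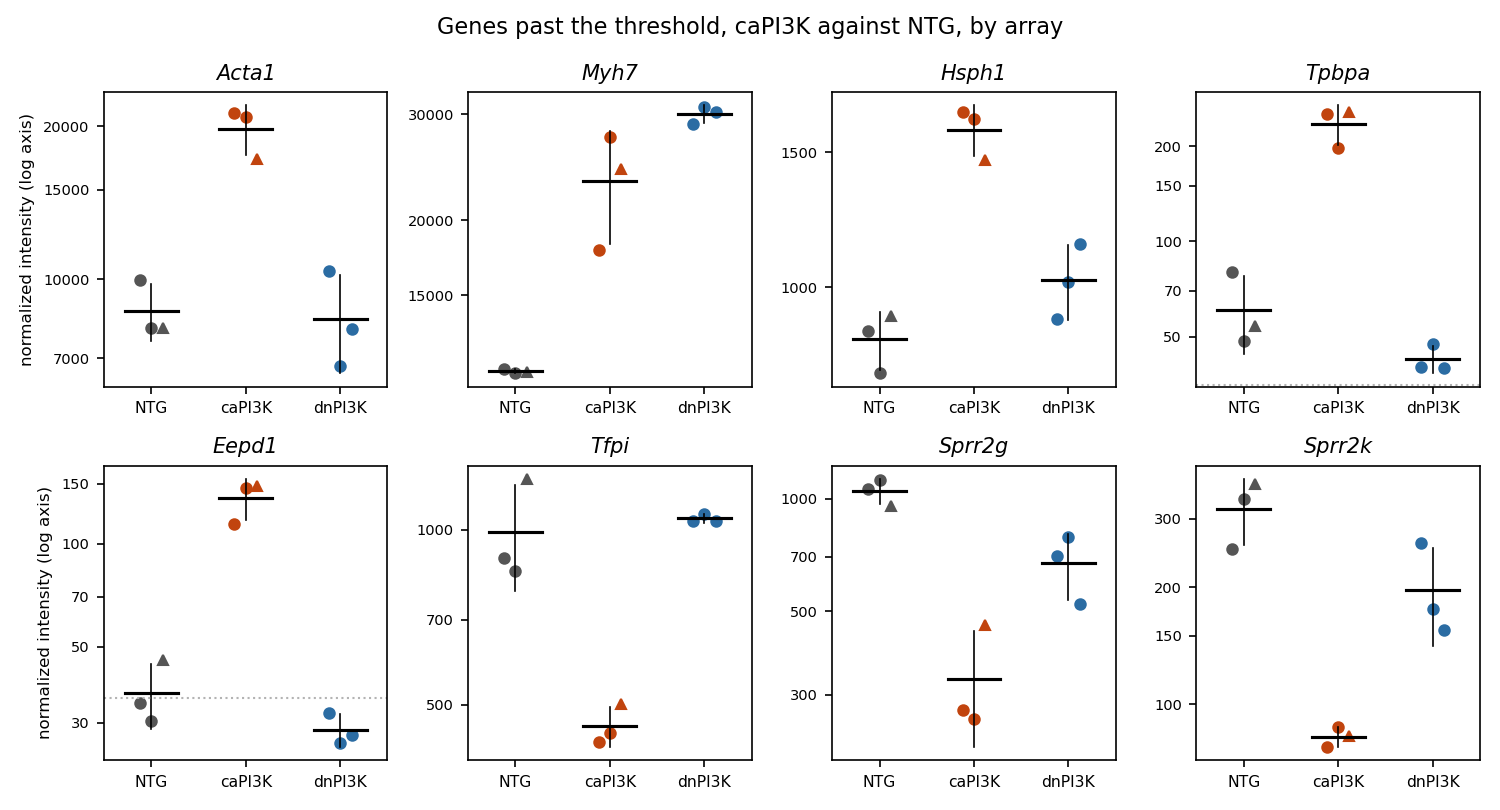
Normalized intensity (log axis) of the 8 named genes past the threshold, by array, in NTG (grey), caPI3K (orange) and dnPI3K (blue); triangles are animals numbered from 3100, circles all others, horizontal bars the mean and vertical bars the SD (n = 3), and a dotted line the floor of 35.34. In every panel the caPI3K and NTG arrays do not overlap; Myh7 is also high in dnPI3K, at a mean of 30006, whereas Acta1 is at 8373 there.

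In the thick and thin filament lists only Acta1 and Myh7 passed, both fetal isoforms, with adult isoforms of the same filaments close to their control level. Tnni1, a thin filament gene that is also on the fetal list, was at -0.56 ± 0.368 with overlap. The light chain Myl1, given below with the skeletal muscle genes, was higher without passing (1.20 ± 0.249). Acta1, the skeletal alpha-actin of the fetal heart, read 21230, 20877 and 17243 in caPI3K and 9968, 8036 and 8008 in NTG. The lowest caPI3K array was well above the highest NTG array, and the log2 difference was 1.19 ± 0.155 (SE, limma adjusted p = 0.0255). Myh7, the slow beta-myosin heavy chain of the fetal mouse ventricle, read 17831, 27516 and 24310 in caPI3K. The 3 NTG arrays of Myh7 were nearly equal, at 11309, 11146 and 11187, and the log2 difference was 1.03 ± 0.134 (SE, limma adjusted p = 0.0255). A second, dim Myh7 probe set gave 0.66 ± 0.436 and overlapped between groups; by their suffix, both probe sets can read more than one family member.

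The adult counterpart Myh6, alpha-myosin heavy chain, read 35392, 32030 and 34718 in caPI3K and 36068, 35392 and 39263 in NTG (log2 difference -0.12 ± 0.0827, limma adjusted p = 0.825). Cardiac actin Actc1 was at 0.018 and Myl2 at -0.015. These very bright genes sit at the top of the intensity range, where quantile normalization holds values together. Of 9 measured thick filament genes of 13 listed, Myh7 passed and its arrays alone were apart. Among 12 measured thin filament genes of 15 listed, the same held for Acta1. The thick filament median of -0.03 turned to 0.049 when arrays were scaled to the same median, a setting that moved the median of all probe sets to 0.037. The thin filament median of -0.013 turned to 0.10 in that setting and to 0.023 without quantile normalization. In the Z-disc and costamere list 12 of 20 measured genes were above 0, with a median of 0.017. Fhl1, Dag1 and Ankrd1 (15%) were separated higher; Myoz1, which tethers calcineurin to the Z-disc, was the member with all caPI3K arrays lower, at 131.1, 187.5 and 154.8 against 406.4, 356.6 and 210.9.

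The promoters of these 2 genes are shown because each holds the hexamer known as MCAT, to which TEAD factors bind, in the 250 bases before the start. The sequences are those of RefSeq on GRCm38.p6, from 5′ to 3′ on the gene's strand, with each CATTCC or its reverse complement GGAATG in capitals. Acta1 lies at chr8:123894776-123895025 on the minus strand, with the hexamer beginning 46 bases before the start, and Myh7 at chr14:54994627-54994876 on the minus strand, with it 201 bases before the first of 2 listed starts.
Acta1: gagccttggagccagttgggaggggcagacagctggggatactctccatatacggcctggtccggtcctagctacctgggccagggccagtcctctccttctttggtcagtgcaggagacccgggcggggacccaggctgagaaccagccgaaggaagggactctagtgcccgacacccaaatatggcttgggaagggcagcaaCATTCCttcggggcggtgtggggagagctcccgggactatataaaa
Myh7: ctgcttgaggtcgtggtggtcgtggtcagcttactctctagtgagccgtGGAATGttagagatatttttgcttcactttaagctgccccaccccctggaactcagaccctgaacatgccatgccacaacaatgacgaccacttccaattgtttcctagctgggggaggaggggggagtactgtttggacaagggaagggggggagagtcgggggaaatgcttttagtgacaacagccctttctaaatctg
Of 27025 genes with such a window, 3880 (14.4%) hold the hexamer on either strand, so a match is a description and not a site. Tead1, the gene of one such factor, read 175.4, 140.8 and 165.4 in caPI3K and 93.11, 40.77 and 28.72 in NTG (log2 difference 1.64 ± 0.378, limma adjusted p = 0.287). Its arrays did not overlap, and it passed only without NTG replicate 1 (2.08, limma adjusted p = 0.042). With the floor at the 40th percentile it was at 0.51, and the second Tead1 probe set gave 0.42.

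Beyond Acta1 and Myh7, no fetal or hypertrophy marker passed the threshold. Of 21 measured genes of 24 listed, 2 passed (Acta1 and Myh7). All caPI3K arrays were higher for 6 (28.6%) and lower for 1 (4.76%), against 6.8% and 5.56% of all genes. The list's median was 0.088. Nppa, the atrial natriuretic peptide, read 1694, 1450 and 3527 in caPI3K and 6840, 3744 and 1553 in NTG. Its groups overlapped, and the log2 difference was -0.73 ± 0.461 (SE, limma adjusted p = 0.808), with -1.69 in the animals numbered from 2800 and 1.18 in the pair numbered from 3100. Nppb, the B-type natriuretic peptide, read 9131, 6242 and 9022 in caPI3K against 7333, 9392 and 8957 in NTG. Its log2 difference was -0.088 ± 0.146 and turned to 0.015 with arrays scaled to the same median and to 0.091 without caPI3K replicate 2.

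Atrial markers also differed between arrays of one group. The 14 measured atrial markers of 17 listed, of which Nppa is one, summed to 5073 to 16786 in caPI3K and to 4592 to 25327 in NTG. Their median log2 difference was -0.47 in the animals numbered from 2800 and 0.59 in the pair numbered from 3100. The part of the atrial markers in the Nppa values was not tested. The other separated members of the fetal list are Postn and Acta2, given below with the matrix and smooth muscle, and Ankrd1, Fhl1 and Lgals3. Ankrd1, a stretch-responsive repressor of the Z-disc, read 19275, 18711 and 19813 in caPI3K and 17019 to 17545 in NTG (log2 difference 0.16). Fhl1, a LIM protein of the sarcomere, differed by 0.45 ± 0.144, and its second probe set by 0.50. Lgals3, a lectin of macrophages and injured tissue, read 65.82 to 87.31 against NTG arrays of 34.15, 11.56 and 12.76, which all lie under the floor.

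The cytosolic heat shock proteins had the highest median of the 41 lists, and the highest share of members with all caPI3K arrays above NTG among lists of 10 or more measured genes. Hsph1, a large chaperone that exchanges the nucleotide of Hsp70, read 1691, 1656 and 1465 in caPI3K and 877.5, 772.9 and 916.6 in NTG. It rose by 0.91 ± 0.119 on the log2 scale (SE, limma adjusted p = 0.0255), and the gap between the groups was larger than the spread within either. Of 32 measured genes of 41 listed, 26 were above 0 and the median was 0.22, against 0 over all genes. For 10 of the 32 (31.2%) all caPI3K arrays lay above all NTG arrays, and for none below, against 6.8% and 5.56% of all genes.

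The separated members include Hsp70 proteins, their exchange factors and their cochaperones. Hspa1a, the inducible Hsp70, read 270.1, 247.1 and 430.8 in caPI3K and 127.1, 178.1 and 146.1 in NTG. Its near-identical copy Hspa1b read 265.5, 217.3 and 273.4 against 168.5, 74.47 and 190.6. The array may not tell these copies apart, and neither passed (log2 differences 1.04 ± 0.283 and 0.91 ± 0.339, limma adjusted p = 0.453 and 0.633). Hspa8, the constitutive Hsp70, read 6967, 7656 and 7000 against 5043, 5625 and 6570, a log2 difference of 0.33 ± 0.104. Hspa4l, a second nucleotide exchange factor, was at 0.51.

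Differences of the cochaperones were smaller. Among the Hsp40 proteins, which deliver clients to Hsp70, Dnajb4 read 790.8, 961.4 and 1008 in caPI3K and 467.3, 737.3 and 611.5 in NTG (0.62 ± 0.184), Dnajb1 was at 0.35 and Dnajb6 at 0.097. Stip1, which links Hsp70 to Hsp90, was at 0.38. Fkbp4, an immunophilin of the Hsp90 complex, read 5746, 5342 and 5320 against 4490, 4734 and 4737, a log2 difference of 0.23 ± 0.0752. Hsp90aa1 itself was at 0.21 and the small heat shock protein Cryab at 0.27, both with overlapping arrays. Hspb1 was the lowest member, at -0.63 ± 0.432, with caPI3K arrays of 20.42, 16.48 and 65.31 across the floor. These members were singled out after their values were seen.

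**Figure D2:**
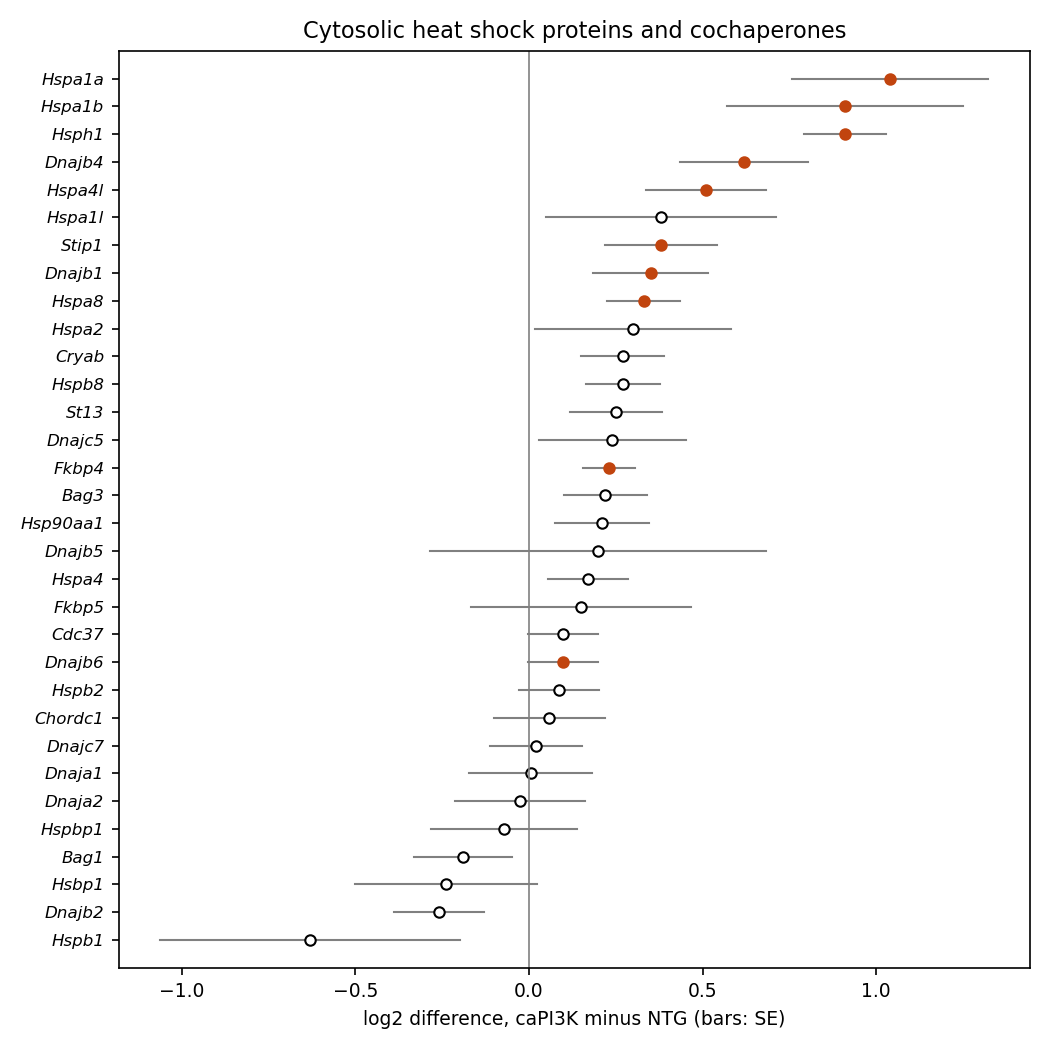
Log2 difference of caPI3K and NTG for the 32 measured cytosolic heat shock genes, with bars of 1 SE; filled points are the 10 genes whose caPI3K arrays all lay above the NTG arrays. The points lie mostly to the right of 0, and Hspa1a, Hspa1b and Hsph1 lie farthest.

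The list's median kept its sign from array to array. Set against the NTG mean of each gene, it was 0.14, 0.20 and 0.18 on the caPI3K arrays and -0.03, 0.0087 and 0.027 on the NTG arrays. Within animals numbered from 2800 it was 0.21 and in the pair numbered from 3100 it was 0.18. Leaving out any one array gave 0.17 to 0.22, the deposited values without quantile normalization gave 0.20, and scaling to the same median gave 0.28.

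Promoters of 4 heat shock genes with separated arrays are shown, because heat shock factor 1 binds inverted repeats of the pentamer nGAAn and the simplest such pair can be read in them. The window is again the 250 bases before the start on GRCm38.p6, from RefSeq, and the capitals mark each GAANNTTC or TTCNNGAA, where N is any base; each motif is its own reverse complement, so a match holds for both strands, and in Dnajb6 one of each overlap. Hsph1 lies at chr5:149636337-149636586 (minus strand, first of 2 listed starts), Hspa1a at chr17:34972157-34972406 (minus strand), Dnajb6 at chr5:29735648-29735897 (plus strand, first of 2 listed starts) and Fkbp4 at chr6:128438657-128438906 (minus strand).
Hsph1: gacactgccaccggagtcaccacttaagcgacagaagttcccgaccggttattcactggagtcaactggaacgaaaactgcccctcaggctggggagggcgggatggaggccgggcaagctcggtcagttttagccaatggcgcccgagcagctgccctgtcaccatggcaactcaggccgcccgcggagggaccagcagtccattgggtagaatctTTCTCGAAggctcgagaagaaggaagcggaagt
Hspa1a: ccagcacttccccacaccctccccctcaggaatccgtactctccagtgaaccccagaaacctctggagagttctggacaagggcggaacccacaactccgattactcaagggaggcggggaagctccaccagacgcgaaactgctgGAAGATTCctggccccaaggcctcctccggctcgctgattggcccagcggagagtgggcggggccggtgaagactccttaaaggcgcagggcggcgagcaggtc
Dnajb6: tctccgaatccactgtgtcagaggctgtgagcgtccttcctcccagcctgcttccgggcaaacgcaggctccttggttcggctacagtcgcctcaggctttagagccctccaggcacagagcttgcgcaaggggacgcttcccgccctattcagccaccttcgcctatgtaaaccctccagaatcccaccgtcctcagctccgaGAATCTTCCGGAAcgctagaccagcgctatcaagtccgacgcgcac
Fkbp4: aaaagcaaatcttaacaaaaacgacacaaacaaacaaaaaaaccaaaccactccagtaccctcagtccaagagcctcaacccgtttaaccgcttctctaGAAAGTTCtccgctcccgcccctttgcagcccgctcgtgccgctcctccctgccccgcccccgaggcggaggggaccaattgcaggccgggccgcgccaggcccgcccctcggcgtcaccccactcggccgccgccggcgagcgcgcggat
The first match begins 33 bases before the start in Hsph1, 104 in Hspa1a, 46 in Dnajb6 and 151 in Fkbp4. Of the 10 separated heat shock genes 9 had a window, and 6 of these hold a match: the 4 shown, Dnajb4 and Hspa1b. Of the other 22 members 17 had a window and 3 hold one, namely Hspb1, Cdc37 and Dnaja1. Over all 27025 genes with a window the share was 14.5% (3932 genes). The split uses the values of these same arrays and counts the near-identical copies Hspa1a and Hspa1b as separate genes. A difference between the shares was not tested. A match is a description of the letters and not a binding site.

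Medians of other lists of protein quality control were smaller. Of 44 measured proteasome genes, the complete list, 33 were above 0 with a median of 0.15, and 10 (22.7%) had all caPI3K arrays higher against 1 (2.27%) with all lower. The median was 0.17 without quantile normalization and 0.25 with arrays scaled to the same median, and no member passed the threshold. Psme4, a proteasome activator, read 2883, 3432 and 3416 in caPI3K and 2364, 2620 and 2319 in NTG (0.41 ± 0.0998, limma adjusted p = 0.32). The lid subunit Psmd6 read 2165, 2588 and 2304 against 1992, 1706 and 1824 (0.35), and Psmd7, its neighbour in the lid, 2447, 2359 and 2514 against 2196, 1986 and 1945 (0.26).

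All 9 listed genes of the chaperonin CCT, which folds actin and tubulin, were measured, and 6 were above 0 with a median of 0.14. In 3 of the 9 (33.3%) all caPI3K arrays were higher, and in none lower. Cct5 read 3072, 3030 and 2671 in caPI3K and 2298, 2295 and 2325 in NTG (0.34 ± 0.0947). Cct3 was at 0.42 on its brightest probe set, at 0.29 on a second and at -0.043 on a dim further one. Tcp1, the founding subunit, was at -0.56 with overlapping arrays. The list's median ran from 0.014 without NTG replicate 2 to 0.27 without NTG replicate 3, a wider range than for heat shock (0.17 to 0.22) or the proteasome (0.12 to 0.17).

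Of the endoplasmic reticulum chaperones, 12 of 23 measured genes were above 0, with a median of 0.012, and 3 (13%) were separated higher and 1 (4.35%) lower. P4hb, the disulphide isomerase, read 1162, 1686 and 964.5 in caPI3K against 595, 472.1 and 363.2 in NTG on its brightest probe set (1.40 ± 0.232, limma adjusted p = 0.0738, and 0.042 without NTG replicate 1). Its other probe set gave -0.16 ± 0.272 with overlapping arrays. Among 10 measured mitochondrial chaperones and proteases the median was -0.041, with 1 separated higher (10%) and 2 lower (20%). Hspe1, the mitochondrial Hsp10, read 3957, 3271 and 3231 against 2792, 2547 and 3043 (0.32), whereas Lonp1, a matrix protease, was at -0.40. For ubiquitin and autophagy genes, 13 of 23 were above 0 with a median of 0.052, and Sqstm1, the autophagy receptor p62, read 7282, 6791 and 6613 against 5398, 5546 and 6065 (0.28 ± 0.131).

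**Figure D3:**
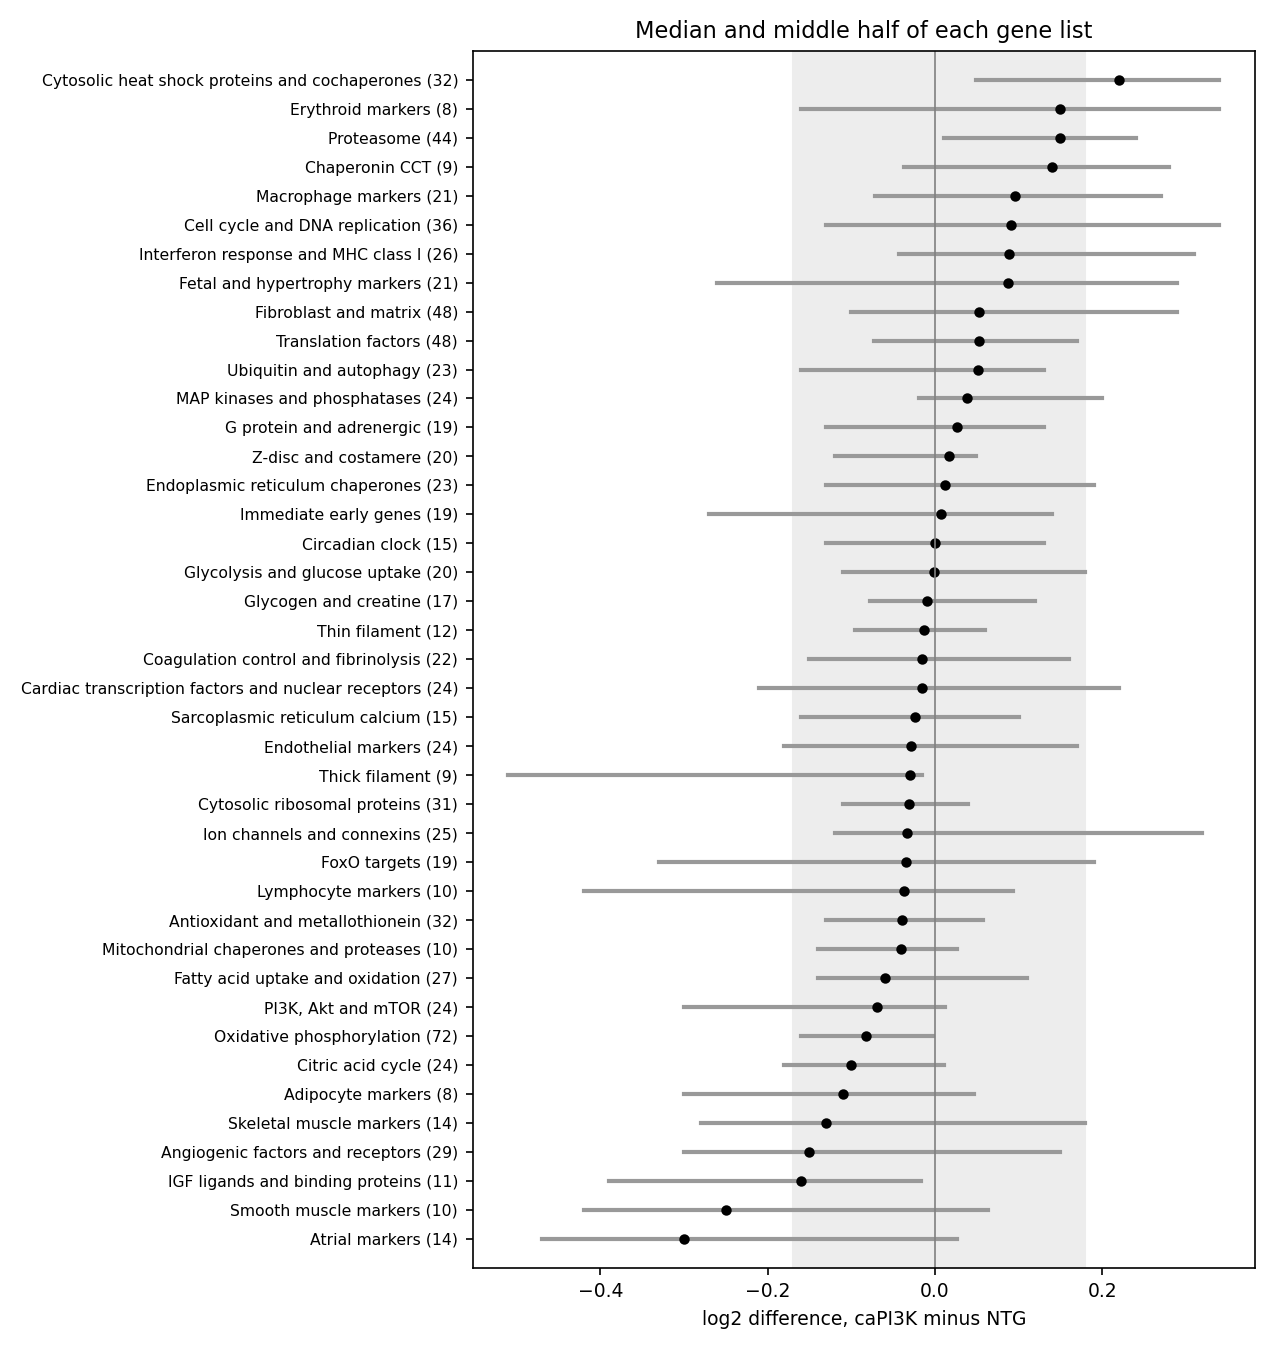
Median (point) and interquartile range (bar) of the log2 difference of caPI3K and NTG for each of 41 gene lists, with the number of measured genes in brackets; the shaded band is the interquartile range over all genes tested, -0.17 to 0.18. The heat shock list is highest, at 0.22, and the atrial markers lowest, at -0.30; the median of one list, cytosolic heat shock proteins, lies outside the band on the high side, and those of smooth muscle and atrial markers lie outside it on the low side.

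Among genes of insulin and IGF signalling, Irs2, Igf1r, Igfbp3, Igfbp1 and Eif4ebp2 had all caPI3K arrays below NTG, and Mtor and Igfbp7 had them above. Irs2, the adaptor that couples the insulin receptor to PI3K and a known FoxO target, read 49.09, 44.38 and 91.46 in caPI3K and 158.3, 148.9 and 107.4 in NTG. All caPI3K arrays were below all NTG arrays, by 1.72 on the log2 scale in the animals numbered from 2800 and by 0.23 in the pair numbered from 3100; the log2 difference was -1.22 ± 0.331 (SE, limma adjusted p = 0.453). With the floor at the 40th percentile it was -0.30. Igf1r, the IGF receptor, read 1167, 967.1 and 798.4 against 1374, 1259 and 1365, a log2 difference of -0.46 ± 0.138. The 3 caPI3K values fall short of the lowest NTG value.

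Binding proteins that hold IGF in the extracellular space went both ways. Igfbp3, the main carrier in plasma, read 127.9, 190 and 55.33 in caPI3K and 269.2, 263.5 and 309.1 in NTG (-1.34 ± 0.374), and a second probe set gave -0.68 with no overlap. Igfbp1, another FoxO target, was dim, at 9.689, 49.68 and 22.87 against 56.53, 67.9 and 95.04, and its second probe set gave 0.12. Igfbp7 was higher, at 253.8, 193.7 and 331.9 against 190, 109.9 and 185.1 (0.69 ± 0.302). The ligand Igf1 (0.20) and Igf2 (-0.23) overlapped between groups. Of 11 measured genes of this list of 12, 2 were above 0 and the median was -0.16. Of the 11, 1 (9.09%) was separated higher and 3 (27.3%) lower, against 6.8% and 5.56% of all genes. Leaving out 1 array moved that median between -0.26 (without NTG replicate 3) and -0.07 (without NTG replicate 1).

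Within the PI3K, Akt and mTOR list, 7 of 24 measured genes of 38 listed were above 0, with a median of -0.069 that was -0.19 without NTG replicate 1. Of the 24, 1 (4.17%) was separated higher and 3 (12.5%) lower, against 6.8% and 5.56% of all genes. Mtor, the kinase that drives protein synthesis, was the member with all caPI3K arrays higher, at 739.8, 704.6 and 720.9 against 650.2, 491.4 and 595.2 (0.33 ± 0.138), though a second probe set gave 0.04. Eif4ebp2, a repressor of translation that mTOR inactivates, was at -0.19 with all caPI3K arrays lower. Akt1 (-0.32 ± 0.171), Akt2 (0.011 ± 0.117) and Pdpk1 (-0.36 ± 0.195) overlapped between groups.

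No subunit gene of PI3K passed. Pik3ca, the catalytic p110 alpha, read 280, 362.6 and 519.2 in caPI3K and 526.7, 401.5 and 453.6 in NTG (log2 difference -0.29 ± 0.226), and its second probe set gave -0.036 ± 0.217. The animals numbered from 2800 were lower and the one from 3100 higher than their controls. Pik3r1, the p85 alpha regulatory subunit, was at -0.21 ± 0.216 and Pik3r2, p85 beta, at 0.52 ± 0.455. Pik3cd, p110 delta of white blood cells, was at -1.04 ± 0.407 on its brighter probe set (-0.23 with the floor at the 40th percentile) and at 0.14 on the other. The labels do not say whether a probe set reads the transgene, so none of these values checks the labels.

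Of 19 measured FoxO targets of 24 listed, which PI3K is known to hold down, 7 were above 0 and the median was -0.034. That median turned to 0.074 with arrays scaled to the same median. Of the 19, 1 (5.26%) was separated higher and 4 (21.1%) lower, against 6.8% and 5.56% of all genes. Beside Irs2 and Igfbp1, Sesn1, a stress-induced brake on mTOR, read 2279, 2656 and 2742 in caPI3K and 3083, 3449 and 3109 in NTG (-0.33 ± 0.0982). The cell death gene Bcl2l11 was at -0.33, also with all caPI3K arrays lower. Pdk4, which shuts pyruvate out of the citric acid cycle, went the other way, at 4752, 5579 and 4378 against 2608, 2212 and 4304. Its NTG arrays ranged widely, and the log2 difference was 1.10 in animals numbered from 2800 and 0.025 in the pair numbered from 3100.

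**Figure D4:**
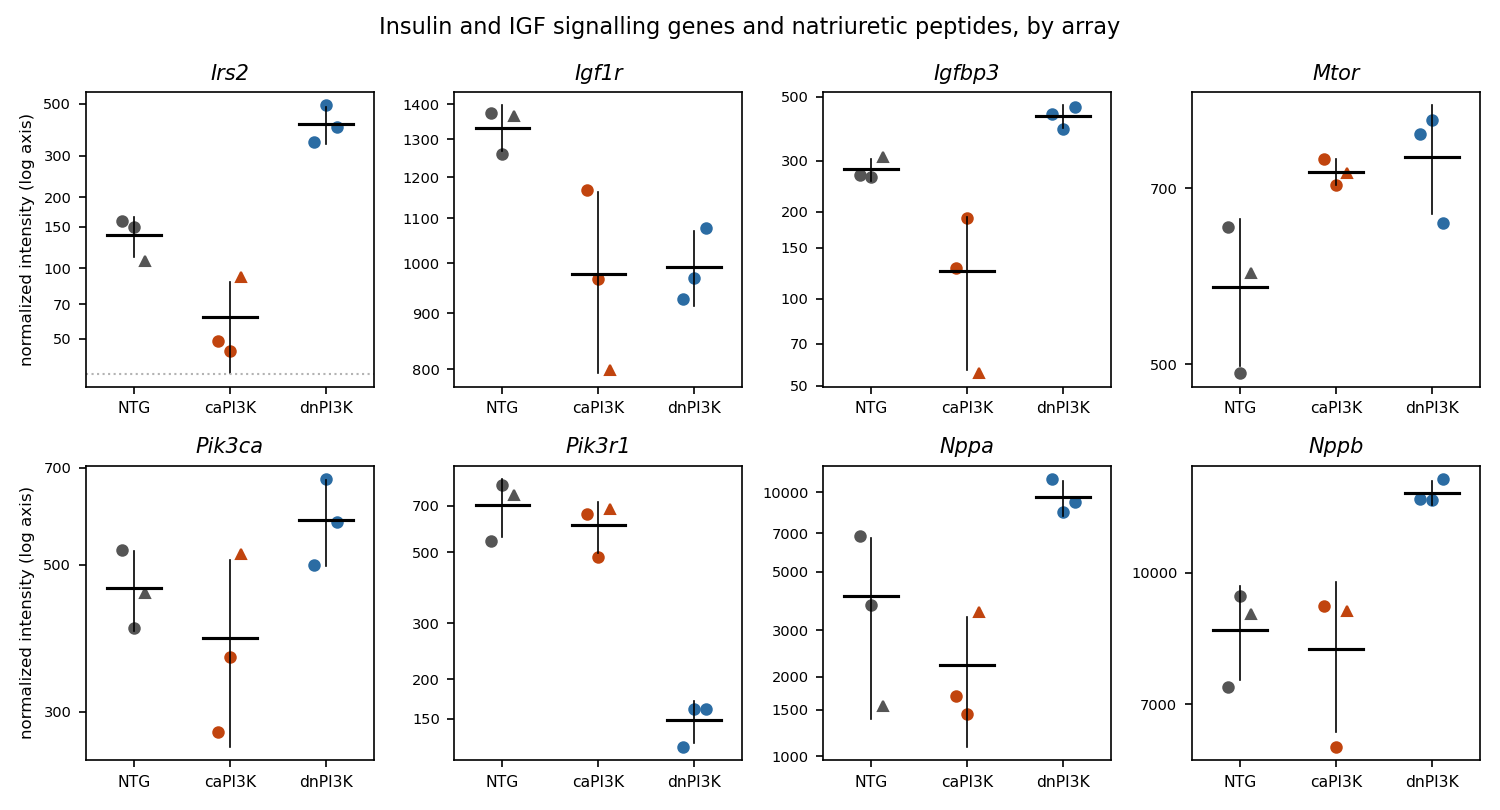
Normalized intensity (log axis) of 6 genes of insulin, IGF and PI3K signalling and of both natriuretic peptides, by array, with symbols as in the plot of genes past the threshold. Irs2, Igf1r and Igfbp3 are lower in all 3 caPI3K arrays than in any NTG array, Mtor is higher, and the Pik3ca, Pik3r1, Nppa and Nppb arrays overlap.

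No gene of energy metabolism passed the threshold. Of 72 measured oxidative phosphorylation genes of 73 listed, 55 were below 0, with a median of -0.082 that was -0.044 without NTG replicate 3. With arrays scaled to the same median it was 0.012, next to 0.037 for all probe sets. For 10 (13.9%) all caPI3K arrays were lower and for 3 (4.17%) higher, against 5.56% and 6.8% of all genes. Sdha, the flavoprotein of complex II that also serves the citric acid cycle, read 1814, 2161 and 2319 in caPI3K and 2629, 2695 and 2794 in NTG (-0.37 ± 0.102, limma adjusted p = 0.453). Atp5j, a coupling factor of ATP synthase, read 7313, 9767 and 9852 against 10378, 10867 and 12496 (-0.33). Cox7a2l, which joins complexes III and IV, was higher, at 3184, 3390 and 3021 against 2588, 2726 and 2633 (0.27).

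Of 24 measured citric acid cycle genes of 26 listed, 17 were below 0, with a median of -0.10. Idh2, the mitochondrial NADP isocitrate dehydrogenase, read 9558, 10915 and 13427 in caPI3K and 13696, 14690 and 16400 in NTG (-0.41 ± 0.128). Suclg2, a subunit of succinyl-CoA synthetase, read 2472, 2423 and 2196 against 2684, 3072 and 3237 (-0.34 ± 0.122). The groups were apart for both genes, and neither passed. With arrays scaled to the same median the citric acid cycle median was -0.00039, next to 0.037 for all probe sets.

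Fuel uptake showed no common direction. Fatty acid uptake and oxidation had 11 of 27 measured genes above 0 and a median of -0.06, which turned to 0.056 with arrays scaled to the same median and to 0.066 without NTG replicate 3. Glycolysis and glucose uptake had 10 of 20 above 0. Pgam2, the muscle phosphoglycerate mutase, read 9939, 10137 and 9767 in caPI3K and 8163, 8866 and 8698 in NTG (0.21 ± 0.0878). Pfkm, the muscle phosphofructokinase and a control point of glycolysis, read 10378, 11146 and 11525 against 9280, 9489 and 10234 (0.19 ± 0.0773). Both were modestly higher in every caPI3K array, and neither passed (limma adjusted p = 0.691 each). Gsta4, which detoxifies products of lipid peroxidation, was at 0.66 ± 0.149 and led the antioxidant list, whose median was -0.039.

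**Figure D5:**
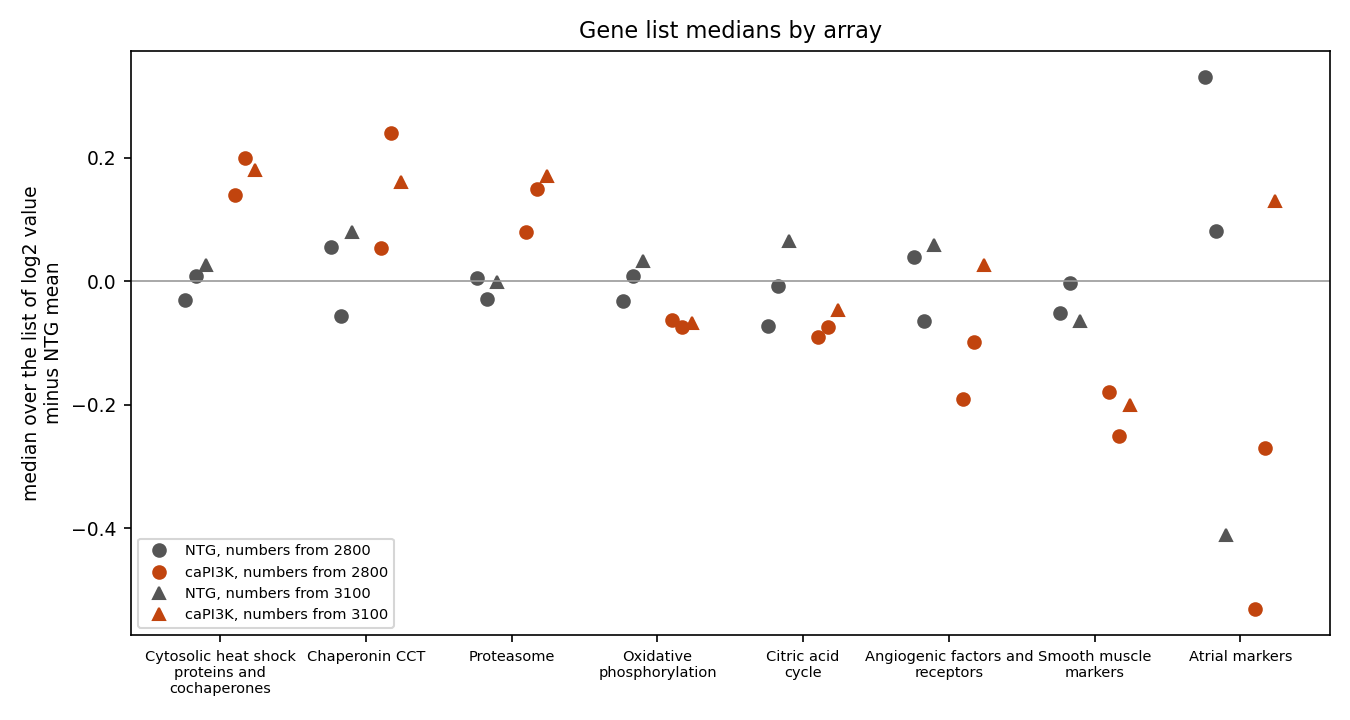
Median, over each of 8 gene lists, of the log2 value on an array minus the mean of that gene in NTG; grey points are NTG arrays and orange points caPI3K arrays, triangles are animals numbered from 3100. The 3 caPI3K medians of heat shock, proteasome, oxidative phosphorylation and smooth muscle all lie on one side of the 3 NTG arrays, whereas atrial markers run from -0.53 to 0.13 in caPI3K and from -0.41 to 0.33 in NTG. With arrays scaled to the same median, the oxidative phosphorylation difference is 0.012, next to 0.037 for all probe sets.

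In vessels, Tfpi fell, and smooth muscle and angiogenic genes had more separated members on the low side. Tfpi, the inhibitor of tissue factor made by endothelium, read 432.3, 446.8 and 501.6 in caPI3K and 894.6, 851.4 and 1224 in NTG. It fell by 1.09 on the log2 scale, with an SE of 0.146 (limma adjusted p = 0.0255). In the list of coagulation control and fibrinolysis 10 of 22 measured genes were above 0, with a median of -0.015, and Tfpi was the one separated lower. Serpinf1, an antiangiogenic serpin, read 673.6, 503 and 526.8 against 444.6, 244.3 and 347.3 (0.75 ± 0.223), and its second probe set gave -0.14.

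Of the endothelial markers, 10 of 24 measured genes of 32 listed were above 0, with a median of -0.029 that turned to 0.077 with arrays scaled to the same median. Their summed intensity was 25521 to 28846 in caPI3K and 26501 to 28288 in NTG. Of the smooth muscle markers, 7 of 10 measured genes of 16 listed were below 0, with a median of -0.25. For 4 of them (40%) all caPI3K arrays were below all NTG arrays, namely Acta2, Tagln, Mylk and Notch3. Acta2, smooth muscle alpha-actin and also a fetal cardiac actin, read 805.7, 727.1 and 1072 in caPI3K and 1457, 1170 and 1188 in NTG (-0.56 ± 0.175). Tagln, an actin-binding protein of the same cells, read 440.2, 443.8 and 463.2 against 482.1, 630.7 and 583.9 (-0.32 ± 0.15). The list summed to 5699 to 6175 in caPI3K and to 6751 to 7066 in NTG, and in RNA of whole tissue fewer cells of a type and less RNA per cell cannot be told apart.

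Of 29 measured angiogenic factors and receptors of 38 listed, 18 were below 0 with a median of -0.15, 6 (20.7%) were separated lower and none higher. Leaving out 1 array moved that median between -0.18 (without NTG replicate 2) and -0.07 (without NTG replicate 3). Angpt1, the ligand that stabilizes vessels, read 91.83, 132.8 and 107.1 in caPI3K and 204, 204.9 and 181.2 in NTG (-0.85 ± 0.249). Pdgfa read 819.5, 799.2 and 795.5 against 1038, 987.9 and 1077 (-0.36 ± 0.13), and Pdgfrb, the receptor of pericytes, was at -0.49. Vegfb, the form of VEGF abundant in heart muscle, read 2915, 2766 and 2497 against 3030, 3440 and 3602 (-0.30 ± 0.111). The groups are apart in each of these 4 genes, and none passed (limma adjusted p = 0.481 to 0.691). Vegfa itself overlapped, at 509.3, 540.7 and 912.7 against 778.4, 783.2 and 867.6, and Kdr, its receptor, was at -0.34 ± 0.227.

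In the matrix list more members were separated on the high side. Of 48 measured fibroblast and matrix genes of 54 listed, 29 were above 0 with a median of 0.053, and 6 (12.5%) were separated higher and none lower. The median was 0.018 without caPI3K replicate 2 and 0.13 without caPI3K replicate 3. Col1a1, a chain of fibrillar collagen, read 2620, 2512 and 2084 in caPI3K and 2035, 1193 and 1778 in NTG (0.56 ± 0.19), and its second probe set gave 0.18 with overlap. Postn, a matrix protein of activated fibroblasts, read 1267, 1300 and 1094 against 1033, 516.7 and 633.1 (0.80 ± 0.226). Lamc1, a laminin chain of the basement membrane, read 974.8, 1052 and 1277 against 916.6, 521.6 and 438.4 (0.88 ± 0.232). In these genes NTG replicate 1 was the NTG array nearest to caPI3K, and without it Postn was at 1.09 (limma adjusted p = 0.042) and Lamc1 at 1.20 (limma adjusted p = 0.041). Timp3, an inhibitor of matrix proteases, was at -0.48 ± 0.151 with overlap.

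No gene of the ribosome or of translation passed the threshold. Cytosolic ribosomal proteins had 13 of 31 measured genes above 0 and a median of -0.031. With arrays scaled to the same median it was 0.038, next to 0.037 for all probe sets. Of these 31, 6 (19.4%) were separated lower and 2 higher, against 5.56% and 6.8% of all genes. Translation factors had 29 of 48 above 0, a median of 0.053, 5 (10.4%) separated higher and 2 (4.17%) lower, near those shares. Eif3d, a subunit of the initiation factor that binds the small ribosomal subunit, read 1525, 1260 and 1511 in caPI3K and 1123, 973.8 and 1204 in NTG (0.38 ± 0.13). Among 36 measured cell cycle genes the median was 0.091, with 3 (8.33%) separated higher and 1 (2.78%) lower. Aurka, a mitotic kinase, read 76.94, 52.11 and 96.31 against 8.222, 18.58 and 8.944, below the floor in all NTG arrays. Ccnd2, the D cyclin, read 142.4, 42.41 and 62.8 against 287.8, 225.2 and 179.3 (-1.65 ± 0.413).

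The other signalling lists had no gene past the threshold and varied in their share of separated genes. Among 24 measured MAP kinases and phosphatases 17 were above 0, with a median of 0.038, and 3 (12.5%) were separated higher and none lower. Dusp8, a phosphatase of stress kinases, read 115.4, 166.6 and 152.9 in caPI3K and 44.59, 68.68 and 87.22 in NTG. Its log2 difference was 1.15 ± 0.302, or 0.35 with the floor at the 40th percentile, and its second probe set gave 0.15. No immediate early gene of 19 was separated, against 6.8% of all genes higher and 5.56% lower. Of 19 measured G protein and adrenergic genes Rgs2, a brake on Gq signalling, was the one separated, at 415.6, 329.6 and 390.2 against 456.9, 549.8 and 610.6 (-0.51 ± 0.251). Among cardiac transcription factors and nuclear receptors 12 of 24 were above 0, with 3 (12.5%) separated higher and 2 (8.33%) lower. Rxrg, a retinoid X receptor, was separated higher, at 620.1, 665.4 and 616.6 against 478.4, 478.2 and 424.9 (0.46 ± 0.137).

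No gene of calcium handling or excitation passed the threshold. The calcium pump of the sarcoplasmic reticulum, Atp2a2, read 16251, 18536 and 20390 in caPI3K and 18711, 20390 and 20877 in NTG, a log2 difference of -0.12 ± 0.107 that became 0.002 with arrays scaled to the same median. Of 15 measured calcium genes of 25 listed, Hrc, a calcium-binding protein of the reticulum, was separated lower, at 6613, 6840 and 6180 against 7413, 7215 and 7582 (-0.18 ± 0.0746), as was the release channel Ryr2 (-0.24 ± 0.124). Of 25 measured ion channel and connexin genes, Kcnd2 (4%) was separated higher and Kcna5 and Fxyd1 (8%) lower. Kcna5, a potassium channel stronger in atrium than in ventricle, read 459, 441.8 and 439.6 against 544.4, 645.4 and 558.9 (-0.38 ± 0.137).

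Of the fast skeletal muscle genes, Myl1 and Casq1 had the largest differences. Myl1, the fast skeletal light chain, read 9234, 13606 and 9917 in caPI3K and 6977, 4690 and 3158 in NTG (1.20 ± 0.249, limma adjusted p = 0.21). Casq1, the skeletal calsequestrin, read 3560, 5909 and 5428 against 2153, 3117 and 2983 (0.84 ± 0.219, limma adjusted p = 0.422). Both were separated from NTG on every array, and without NTG replicate 1 Myl1 was at 1.48 with an adjusted p of 0.041. Of 14 measured skeletal markers of 21 listed, 8 were below 0 and the median was -0.13. Their summed intensity was 26072 to 32934 in caPI3K and 18278 to 21169 in NTG, mainly from Myl1, Pgam2 and Casq1; the part of skeletal muscle in these values and in that of Acta1 was not tested. The fast myosin Myh4, a defining gene of that tissue, was at -0.30 with overlap, and the fast regulatory light chain Mylpf read 198.9, 190 and 212.7 against 242.9, 264.5 and 290.9 (-0.41).

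Several genes with the largest differences belong to no heart list. Of 10 measured Sprr2 genes, the small proline-rich proteins of cornified epithelium, 6 had all caPI3K arrays below NTG and 1, the pseudogene Sprr2c-ps (0.44 ± 0.27), had them above. Over all genes 5.56% were below and 6.8% above. Sprr2g read 272.2, 258.2 and 459.1 in caPI3K and 1062, 1120 and 958.4 in NTG, and Sprr2k read 77.64, 87.09 and 82.73 against 250.3, 336 and 368.7. Both fell, by 1.71 and 1.93 on the log2 scale, with SEs of 0.226 and 0.274 (limma adjusted p = 0.0255 and 0.0327). Sprr2i (-1.71 ± 0.319) and Sprr2b (-1.38 ± 0.446) were separated in the same direction without passing. The probe sets of these 4 genes carry the family suffix, so they may read common transcripts and are not independent.

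Tpbpa, a protein of trophoblast, read 253.2, 197.1 and 256 in caPI3K and 80.33, 48.53 and 54.08 in NTG, and rose by 1.97 ± 0.289 (SE, limma adjusted p = 0.0386). The call held in 3 of 19 alternatives, and with the floor at the 40th percentile the difference was 1.05 (adjusted p of 0.0279). Eepd1 read 114.2, 146 and 147.6 against 34.38, 30.31 and 45.63 and rose by 1.81 ± 0.25 (SE, limma adjusted p = 0.0286). With 2 NTG arrays on the floor that size depends on the floor, and with the floor at the 40th percentile it was 0.26 with an adjusted p of 0.709. Spink4, a secreted protease inhibitor, read 512.5, 498.8 and 492.6 against 176.6, 190.2 and 257.9, just short of the threshold (1.29 ± 0.203, limma adjusted p = 0.0556).

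Leaving out dnPI3K replicate 1 brought Sprr2i past the threshold (limma adjusted p = 0.0345), and leaving out NTG replicate 1 brought Rhox5 past it (2.23, limma adjusted p = 0.041). A few further genes with no overlap did not pass with all arrays kept. With the floor at the 40th percentile Rhox5, Cad, Fxr2, Aard and Akp3 were at 0.79, 1.05, -0.91, -0.60 and -0.57. On the high side Rhox5, a homeobox gene of testis and placenta, was at 1.87 ± 0.345 and Cad, which starts pyrimidine synthesis, at 1.85 ± 0.534. Cad read 304.7, 285.4 and 144.6 in caPI3K and 60.33, 59.61 and 73.98 in NTG. Tradd, an adaptor of the tumour necrosis factor receptor, was brighter, at 1456, 2008 and 1430 against 364.7, 788.2 and 823.8 (1.38 ± 0.384). On the low side Fxr2, an RNA-binding protein, was at -1.78 ± 0.595, Aard at -1.48 ± 0.418 and the intestinal phosphatase Akp3 at -1.42 ± 0.434. Also higher with no overlap were Lsm2 (1.34 ± 0.277), Sstr2 (1.43 ± 0.322), Acot8 (1.34 ± 0.538) and Rrm1 (1.29 ± 0.448). Grik5 (-1.37 ± 0.382) and Rpl32 (-1.64 ± 0.603) were lower, and none of these passed. Other probe sets of Sstr2 (-0.12 and 0.0034), Rrm1 (0.18) and Grik5 (0.056) overlapped between groups.

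No macrophage marker of 21 measured and no interferon or MHC class I gene of 26 was separated in either direction. Of all genes 6.8% were separated higher and 5.56% lower. The macrophage markers summed to 10767 to 11577 in caPI3K and 8124 to 13710 in NTG, and the interferon list to 29550 to 41882 and 21122 to 46040. Their medians were -0.078 and -0.14 in animals numbered from 2800 and 0.62 and 0.37 in the pair numbered from 3100. Lymphocyte markers summed to 1802 to 2367 in caPI3K and 2114 to 3682 in NTG, adipocyte markers to 2499 to 3221 and 2576 to 3538, and erythroid markers, which haemoglobin dominates, to 46608 to 54680 and 35664 to 49813. The part of these cells in any result above was not tested.

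The test between the transgenic groups asks where active and dominant negative PI3K hearts differ. Past the threshold were 345 of 10645 probe sets (3.24%) in caPI3K against dnPI3K. This contrast uses no NTG array, but the dnPI3K animals form a number series of their own, and their arrays differ in controls that do not read heart messenger RNA. The spike-in controls averaged 1567 to 1984 in dnPI3K and 2781 to 3386 in caPI3K (geometric means), and the 18S ribosomal RNA control 3303 to 8097 against 475.4 to 540.4. Number series and genotype cannot be told apart there.

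Because both contrasts use the caPI3K arrays, the values are given side by side and no overlap is drawn. Acta1 averaged 8373 in dnPI3K and was higher in caPI3K by 1.26 (limma adjusted p = 0.00164). Hsph1 averaged 1022 there (0.65, limma adjusted p = 0.0157) and Tfpi 1047 (-1.19, limma adjusted p = 0.00163). Myh7 averaged 30006 in dnPI3K, above its mean of 23219 in caPI3K, and that difference of -0.39 ± 0.134 had an adjusted p of 0.16. Against NTG, dnPI3K was at -0.065 for Acta1 (limma adjusted p = 0.894) and at 1.42 for Myh7 (limma adjusted p = 0.000574). Eepd1 (1.93), Tpbpa (2.46), Sprr2g (-1.06) and Sprr2k (-1.22) also passed between the transgenic groups, with limma adjusted p of 0.00219, 0.00134, 0.0313 and 0.0394.

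For some genes that missed the threshold in caPI3K against NTG, the means of the transgenic groups lay on opposite sides of the NTG mean. Irs2 averaged 61.64 in caPI3K and 410.8 in dnPI3K, with NTG at 138.2 (caPI3K minus dnPI3K -2.80, limma adjusted p = 0.00138). Myl1 averaged 10919 in caPI3K and 1164 in dnPI3K around 4942 in NTG (3.22, limma adjusted p = 0.000122), and Casq1 differed by 2.68. Psme4 averaged 3244 and 1421 around 2434 (1.19, limma adjusted p = 0.000143). Acta2 averaged 868.3 and 2555 around 1272 (-1.56, limma adjusted p = 0.00113). Pdgfa (-0.83, limma adjusted p = 0.00678), Vegfb (-0.68, limma adjusted p = 0.0084) and Idh2 (-0.76, limma adjusted p = 0.0105) were lower in caPI3K, and Hspa8 was higher (0.64, limma adjusted p = 0.00849). Pik3r1 differed from these in that both transgenic means were below NTG: it averaged 609 in caPI3K, 148.3 in dnPI3K and 706.3 in NTG (2.03, limma adjusted p = 0.000851). Some other named genes also moved the same way from NTG in both transgenic groups. Rhox5 was at 1.87 in caPI3K and 1.99 in dnPI3K, Lsm2 at 1.34 and 1.88, and Sstr2 at 1.43 and 1.59. In the same order, Dusp8 was at 1.15 and 2.30, Spink4 at 1.29 and 0.90 and Tead1 at 1.64 and 1.40. Igf1r was at -0.46 and -0.43 and Mtor at 0.33 and 0.36. Against NTG, Rhox5, Lsm2, Sstr2, Dusp8 and Spink4 passed in dnPI3K (limma adjusted p = 0.0045 to 0.0499).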

How the data were processed

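Total RNA of 9 ventricles was hybridised to 1-colour Affymetrix arrays and, per the labels' protocols, scanned at a PMT setting of 10%. The deposited values are intensities, 1 per probe set and array, from 0.1 to 49149; how the authors summarised probes is not stated in the labels; the mean of each array without its top and bottom 2% is 500.4. Arrays were quantile normalized, the 66 control probe sets were then left out, values were floored at the 20th percentile (35.34) and log2 was taken. The 10645 probe sets above the floor on at least 3 arrays were tested in R 4.3.3 with the lmFit, contrasts.fit and eBayes functions of limma 3.58.1, with an intensity trend, over all 9 arrays, with 6 residual degrees of freedom, after the scripts were tested on simulated data. No label says that arrays are from separate litters, so p-values measure the spread between these animals. Array number limits the precision. Symbols come from the platform annotation: of 12488 probe sets 10855 have 1 symbol, 396 have several and 1237 have none. A gene stands for its brightest tested probe set. Arrays of a gene are called apart or separated when all 3 caPI3K values lie above, or all below, the NTG values, on floored values.

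Named are the genes past the threshold, PI3K subunits, Nppa, Nppb, Myh6 and Atp2a2, and members of the 41 gene lists. From each list up to 4 members with the smallest p were eligible, and not all of them are printed. In each direction, up to 10 genes that differed most are also named. These have an unadjusted p under 0.05, all 6 arrays above the floor and no overlap. Members and lists were chosen with earlier results of these data known, and further list members named for their role or their separation were chosen after their values were seen. Alternatives changed the normalization, the floor, the filter, the moderation, the arrays fitted and the probe sets per gene.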

Additional observations from a re-analysis of the deposited data

Results flagged for a closer look

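The difference between caPI3K and NTG had opposite signs in the animal number series for 2 genes that are named for their role. Nppa was at -1.69 on the log2 scale in animals numbered from 2800 (2 against 2), and at 1.18 in the pair numbered from 3100. Pik3ca was at -0.53 and at 0.19 in the same order, on the brighter of its 2 probe sets; the other gave -0.036 over all arrays. With 1 animal of each group in the second series, the difference between the series was not tested.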

How the results depend on the processing

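The number of probe sets past the threshold, 9 by limma, was 1 without the filter on dim probe sets, 1 without the intensity trend and 1 with the caPI3K and NTG arrays alone. Leaving out each array gave 0 to 20. Under the other alternatives it was 7 to 13. The cause was not tested. Differences of genes near 0 turned sign: Atp2a2 to 0.002, Nppb to 0.015 and Myl2 to 0.072 with arrays scaled to the same median. Over the fits that leave out 1 array, Nppb ran from -0.19 to 0.091, Myl2 from -0.043 to 0.028, Akt2 from -0.037 to 0.065, Actc1 from -0.0068 to 0.043, Myl7 from -2.24 to 0.028 and Igf1 from -0.021 to 0.47. Many list medians also turned sign when 1 array was left out, among them those of the erythroid (0.15, or -0.098 without NTG replicate 3), macrophage (0.096, or -0.023 without NTG replicate 3), interferon (0.089, or -0.12 without NTG replicate 2), adipocyte (-0.11, or 0.098 without NTG replicate 1), FoxO target (-0.034, or 0.03 without NTG replicate 3) and Z-disc (0.017, or -0.039 without NTG replicate 1) lists. No called gene changed direction under any alternative run. No paired analysis was possible because the labels give no replicate numbers that groups share. With the number series as a block 8 probe sets passed, 5 higher and 3 lower, of which 7 were among the 9. Values at or under the floor have no order, which limits Eepd1, Lgals3, Aurka, Hspb1 and Igfbp1. With the floor at the 40th percentile, differences of Tpbpa, Irs2, Tead1, Rhox5, Dusp8, Pik3cd, Ccnd2 (-0.90), Cad, Fxr2, Aard and Akp3 shrank by over 1.5 times.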
